A study of Mus musculus with 6 samples.

Results

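The cell cycle genes examined here are 34 transcripts of the dividing cell, chosen by symbol from a fixed list and found as 34 of the 33696 genes in the deposited matrices. By role they comprise 22 mitotic genes (cyclins and their kinase, spindle motors, kinetochore and checkpoint proteins), 7 genes of replication licensing and the replication clamp, 3 genes of nucleotide synthesis and 2 genes of broader use, Stmn1 and Hmgb2. They were measured by droplet single-cell RNA sequencing (10x Genomics) of the genioglossus, the tongue muscle that holds the upper airway open, in male mice. The series compares a control group with a group labelled OSA-4W, a model of obstructive sleep apnea collected at week 4, with 3 samples in each group, all labelled batch 1. Strain, age and the way the model was made are not given in the labels, and the labels do not say whether the samples of a group came from separate animals, so p-values measure only the spread between these samples. Counts came from 1 control library (replicate 2) and from all 3 OSA libraries, and control replicates 1 and 3 are not analysed here, so every comparison set 1 library against 3.

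A cell that divides copies its DNA once, separates the copies and splits. MCM proteins load as a ring onto replication origins before DNA synthesis, PCNA clamps the polymerase to the template, and ribonucleotide reductase and thymidylate synthase supply the nucleotides. The mitotic genes are transcribed late in the cycle and many of their products are destroyed at its end, so their transcripts mark dividing cells, while the licensing genes are also transcribed in cells that are not dividing. In adult muscle most cells are quiescent, and division is known mainly from activated satellite cells, the muscle stem cells, and from immune, endothelial and stromal cells after injury.

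The 4 libraries held 12618 to 15743 barcodes, of which 12231 to 15217 were kept as cells, with medians of 3817 to 4770 UMIs (unique molecular identifiers, each 1 counted transcript) and 66525743 to 77267639 UMIs in all. Although the labels name skeletal muscle cells, myofibre-like cells numbered 18, 14, 54 and 18 in control replicate 2 and OSA replicates 1, 2 and 3, and endothelial-like, fibroblast-like and mural-like cells made up most of each library. This order of the libraries is used throughout. Pairs of these libraries shared 52 to 67 barcodes, at most 0.468% of the smaller library. Cell classes were named from marker genes, with all cell cycle genes kept out of the clustering, and 10 of 14 named classes had at least 30 cells in every library and were tested. OSA replicate 2 stood apart in these genes, with 9476 UMIs of the 22 mitotic genes against 5308 in the control library and 7011 and 6628 in the other OSA libraries.

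The mitotic transcripts lay in very few cells. For each gene, the share of its UMIs was taken that lay in cells with at least 1 UMI of 3 or more other mitotic genes, so that a gene never chose its own cells. Ccna2, the cyclin of S and G2 phase, had 89.1%, 87.8%, 90% and 91.4% of its UMIs in such cells. For Cdk1, the kinase that starts mitosis, the shares were 72.1%, 76%, 81.2% and 68.1%. Mki67, which coats mitotic chromosomes, had 67.2%, 71.8%, 76.9% and 76.3%, and Top2a, the topoisomerase that untangles sister chromatids, 65.1%, 66.5%, 80.5% and 71%. Other genes of this group were spread wider over the tissue. Kif23, a kinesin of the midzone where the cell splits, had only 11.7%, 15%, 25.6% and 20.1% of its UMIs there, and Aurka, a centrosome kinase, 10.8%, 12.4%, 26.5% and 21.1%.

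At the low end were the replication genes. Pcna had 2.76%, 3.64%, 6.98% and 4.28% of its UMIs in cells with 3 or more mitotic genes, Mcm4 3.32%, 4.06%, 6.16% and 3.74%, and Rrm1, the large subunit of ribonucleotide reductase, 2.37%, 5.49%, 8.73% and 5.62%. Its partner Rrm2, the subunit made during S phase, was higher in every library, at 15.7%, 24.9%, 31.9% and 30%. Stmn1, which destabilises microtubules, ran from 10.2% to 28.3% and Hmgb2, a chromatin protein, from 7.6% to 20.7%. A sum of Pcna, Rrm1 or Mcm4 over a cell class was therefore made up almost wholly of cells without the mitotic set, whereas a sum of Ccna2, Cdk1 or Top2a was made up mainly of cells with it. The shares of most genes were highest in OSA replicate 2, which also had most such cells.

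**Figure D1:**
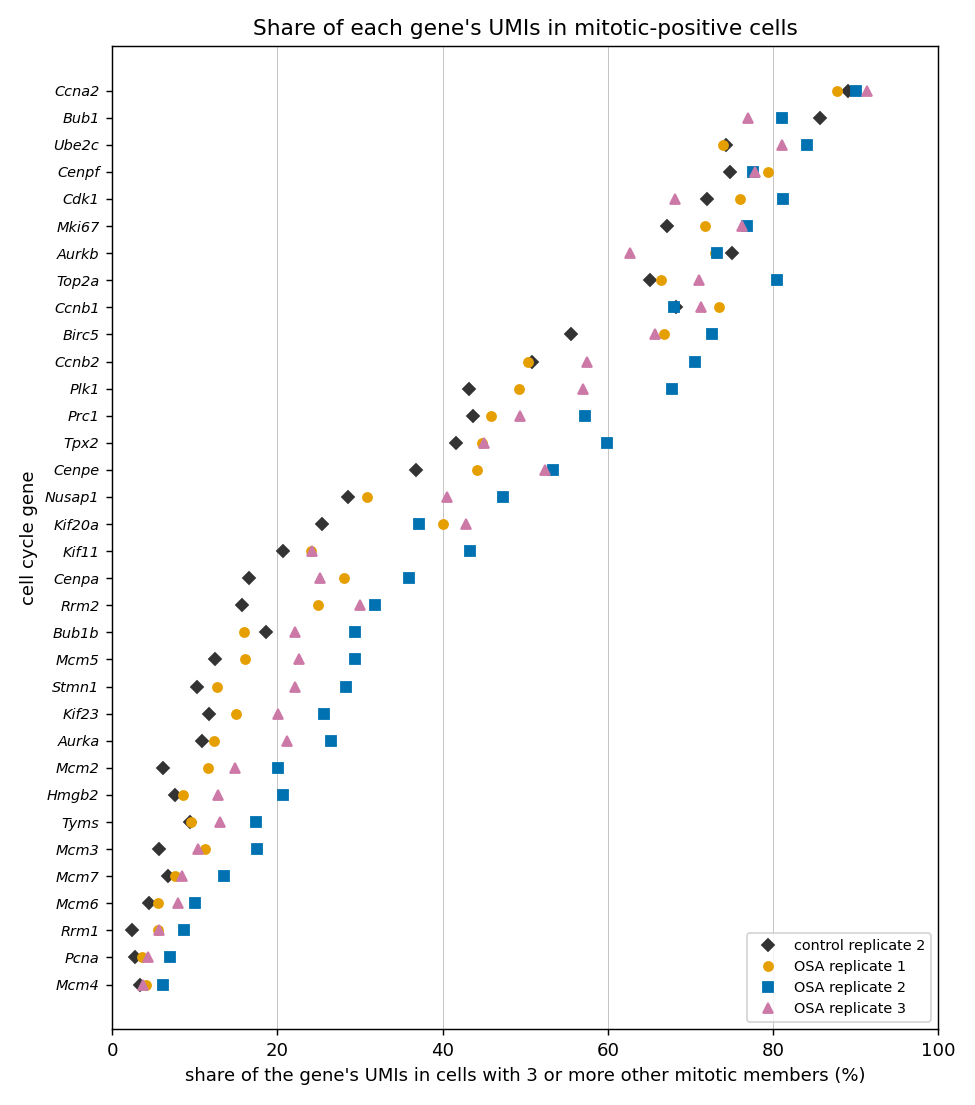
Share of each gene's UMIs (horizontal axis, percent) that lay in cells with 3 or more other mitotic genes, for the 34 cell cycle genes (vertical axis) in each of the 4 libraries (points). Ccna2 lay between 87.8% and 91.4% and Mcm4 between 3.32% and 6.16%.

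Cells with at least 1 UMI of 3 or more of the 22 mitotic genes, called mitotic-positive from here on, numbered 76 of 13248 in the control library, 0.574% with an exact Clopper-Pearson 95% interval of 0.452% to 0.718%. In the OSA libraries they numbered 97, 162 and 100, or 0.637%, 1.32% and 0.727%. The OSA mean was 0.896% ± 0.374 (SD, n = 3), 0.323 percentage points above the control, and the exact two-sided permutation test gave p = 0.5, where 1 library against 3 cannot go below 0.25. Without OSA replicate 2 the difference was 0.108 percentage points. Cells with exactly 3 mitotic genes numbered 35, 50, 50 and 34, and those with exactly 2, just outside, 246, 328, 377 and 285. Intervals cover counting error only. Mitotic-positive cells were deep, with median UMIs of 10136, 12057, 10620.5 and 14793.5, so all cells were also thinned to 2000 UMIs, which left out 2689, 2983, 1974 and 3116 shallower cells. The shares were then 0.246%, 0.229%, 0.721% and 0.357%, with OSA replicate 2 above the control library and OSA replicate 1 slightly below it. Of the barcodes called doublets, 0.444%, 1.41%, 1.69% and 1.45% were mitotic-positive.

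The 12 genes that did not choose these cells were all higher in them. In CPM, counts scaled to the total of the cells summed, Rrm2 was 12.8 to 18.3 times higher in mitotic-positive cells than in the other cells of the same library, and Mcm5, a subunit of the helicase ring, 9.88 to 14.1 times. Stmn1 stood at 617, 620, 498 and 428 CPM in mitotic-positive cells and at 78.4, 80.2, 37.2 and 35.2 in the others. Mcm6 was 3.14 to 3.77 times higher, Pcna 1.91 to 2.54 times and Rrm1 1.68 to 3.24 times. Each of the 12 was higher in 4 of 4 libraries, whereas of 15081 genes with at least 1 CPM in the other cells 17.8% were higher in 4 of 4 and 26.2% lower. Within satellite-like cells all 12 were higher in 4 of 4 libraries, from 6, 12, 12 and 8 mitotic-positive cells. The share of all genes was not taken in that class.

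Among 100 further genes of the cycle, those of replication and chromosome segregation were higher in mitotic-positive cells, while those known to restrain division were mixed. All 21 genes of origin firing and replication and all 26 of the chromosome and spindle list were higher in 4 of 4 libraries. Of the 15081 background genes, 17.8% were higher and 26.2% lower in 4 of 4. Tk1, the thymidine kinase made in S phase, was 67.5 to 119 times higher. Of 7 kinase inhibitors 3 were lower and 2 higher in all 4 libraries. With so few genes beside that background, these counts are not a result about inhibitors. Cdkn1a (p21), Cdkn1b (p27) and Cdkn1c (p57) were the lower ones, at 0.625 to 0.834, 0.527 to 0.732 and 0.12 to 0.364 times their level in the other cells. Cdkn2c and Cdkn2d, which block the G1 kinases Cdk4 and Cdk6, were higher, at 4.77 to 9.23 and 1.58 to 2.11 times. Of 14 pocket protein, E2F and DREAM genes 11 were higher in all 4 libraries. None of the 8 anti-proliferative and p53 target genes was higher in all 4 libraries, and 5 were lower in all 4, beside 26.2% of the background. Among the lower ones was Btg2 at 0.384 to 0.511 times. These are descriptions of single libraries without a test, and mitotic-positive cells also differ from the rest in cell class and depth.

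By class, mitotic-positive cells were over 2% of a tested class in at least 1 library in satellite-like, macrophage-like, neutrophil-like, lymphatic endothelial-like and T and NK-like cells. Satellite-like cells held 6, 12, 12 and 8, or 2.21%, 3.74%, 4.36% and 2.48% of the class, with exact intervals that overlapped in all 4 libraries. Schwann-like cells, the glia of the nerve, served as the class in which little division is known and held 0, 4, 2 and 0, at most 0.431%, with median depths of 2418 to 3158 UMIs against 4696 to 6215 in satellite-like cells. Thinned to 2000 UMIs per cell, the satellite-like shares were 1.91%, 1.63%, 2.63% and 2.01%, and the thinned control value lay among those of the OSA libraries.

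T and NK-like cells held 0 mitotic-positive cells of 129 in the control library, and 4 of 102, 4 of 88 and 8 of 192 in the OSA libraries. With 3 counts taken as the limit of a count of 0, the control allows a share of up to 2.33%. This is not the exact interval, which is drawn in the plot of shares. The OSA mean was 4.21% ± 0.314 (SD, n = 3), and p = 0.25 in the exact permutation test is the smallest it can give. Thinned, the shares were 0%, 2.15%, 1.15% and 3.77%. When cell cycle genes entered the clustering, the OSA mean was 1.80% against 0 in the control. With a minimum of 2 mitotic genes the control was at 4.65% and the OSA mean at 9.71% (p = 0.5, exact permutation test). Endothelial-like cells, the largest class of each library, held 28, 20, 32 and 7, or 0.477%, 0.273%, 0.673% and 0.165%, with the control inside the range of the OSA libraries. Lymphatic endothelial-like cells held 4, 4, 3 and 2. Outside the tested classes, epithelial-like cells held 0 of 8, 6 of 27, 0 of 1 and 13 of 50, monocyte-like cells 1 of 17, 3 of 39, 12 of 47 and 0 of 48, and unnamed cells 7, 14, 20 and 15, of which 3, 6, 12 and 11 were in a cluster with dendritic markers.

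**Figure D2:**
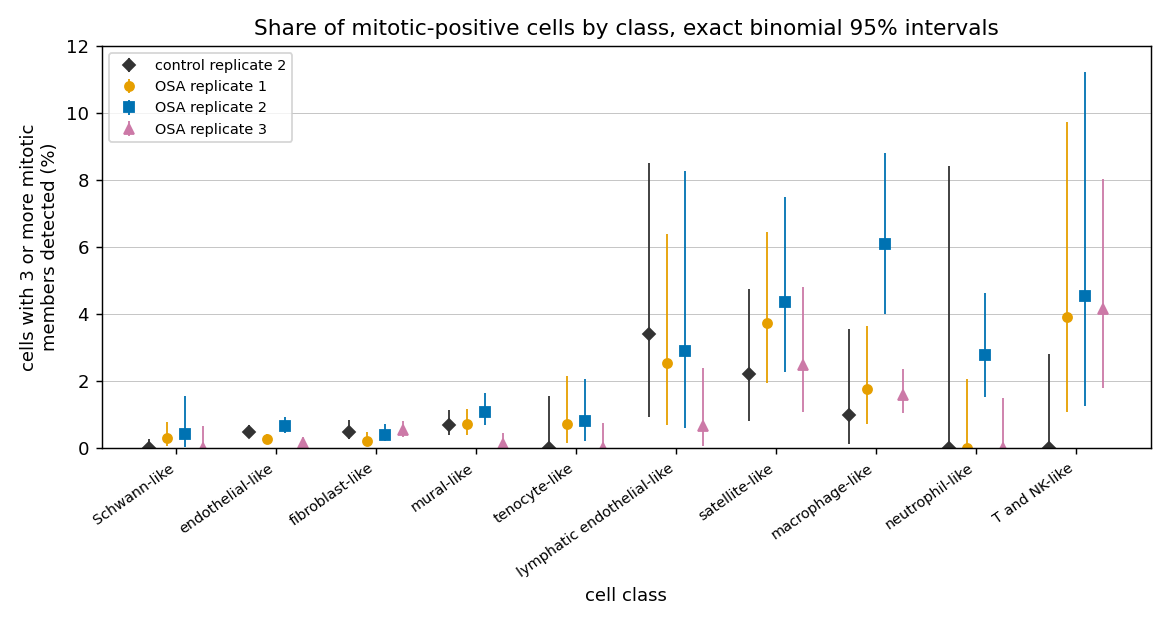
Share of mitotic-positive cells (vertical axis, percent of the cells of a class) in each of the 10 tested classes (horizontal axis), with 1 point per library and bars for the exact binomial 95% interval. T and NK-like cells were at 0 in the control library and at 3.92% to 4.55% in the OSA libraries, and macrophage-like cells reached 6.09% in OSA replicate 2.

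Summed over all kept cells, no cell cycle gene passed an adjusted p of 0.05 in edgeR's quasi-likelihood test, and DESeq2 called 0 as well. Of the 34 genes 29 were higher in OSA, including 22 of 22 mitotic genes, with a median log2 change of 0.34 against 0.01 over all 20888 genes tested. Of all genes tested 51.9% were higher. The mitotic genes were counted in shared cells, so their directions are not independent. The background was 0% of genes called, and 1 of the 34 was under an unadjusted p of 0.05. This was Ccnb1, the mitotic cyclin that activates Cdk1, with 41, 79, 128 and 94 UMIs and a log2 change of 1.24 ± 0.49 (SE, adjusted p = 0.988). Top2a had 522, 764, 1398 and 762 UMIs and a log2 change of 0.85 ± 0.46, and Pcna 5070, 5960, 4455 and 3576 UMIs and one of -0.19. Without OSA replicate 2 the median over the 34 was 0.22. In a sum over cells, more dividing cells and more transcript per cell cannot be told apart.

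**Figure D3:**
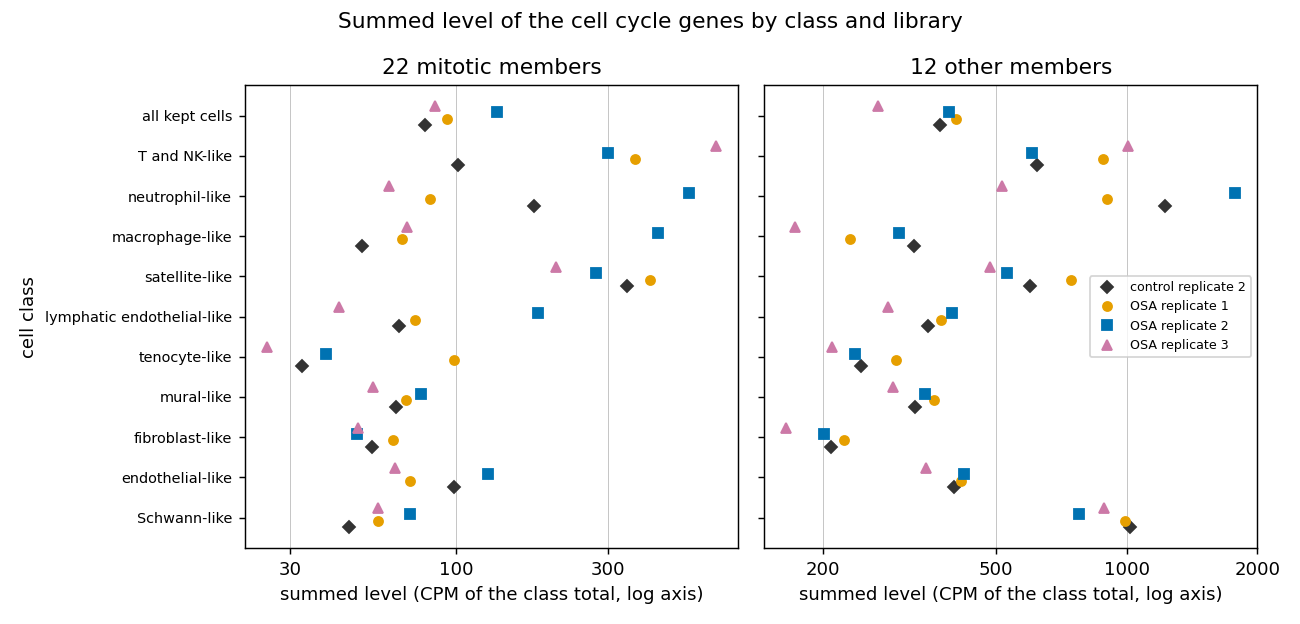
Level in CPM of a class's UMIs (horizontal axis, log scale), summed over the 22 mitotic genes (left panel) and over the other 12 genes (right panel), by class (vertical axis) and library (points). In T and NK-like cells the mitotic sum was 101 in the control library and 301 to 656 in the OSA libraries.

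In T and NK-like cells, the lymphocytes of the tissue, 2 mitotic genes were called higher in OSA. The 22 mitotic genes had 58 UMIs in 129 control cells and 170, 152 and 493 UMIs in 102, 88 and 192 OSA cells, or 101 CPM against 365, 301 and 656. Top2a had 2, 39, 39 and 81 UMIs, or 3.68 CPM after TMM scaling, used for single genes from here on, in the control library and 80.6, 74.6 and 110 in the OSA libraries. Every OSA library lay far above the control. The log2 change was 4.52 ± 0.69 (SE, adjusted p = 1.66e-05), and as the control rests on 2 UMIs the count ratio was 24.8 with a 95% counting interval of 6.75 to 206. Mki67, with 1, 10, 21 and 16 UMIs, changed by 3.74 ± 1.05 on the log2 scale (adjusted p = 0.0397), a ratio of 14.7 with an interval of 2.5 to 591. Without OSA replicate 2 its log2 change was 3.40 and no longer passed (adjusted p = 0.361). In this class 1.55% of 7920 genes were called in either direction, and the 2 called here were 2 of the 19 cell cycle genes that passed the filter on low counts, 11 of them mitotic. Several mitotic genes passed that filter through the OSA libraries alone, so their number is not a result. The called genes Top2a and Mki67 are among them, and neither was testable with at least 10 counts asked of every library.

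The other mitotic genes of these lymphocytes were higher in OSA without passing, or too sparse to test. Prc1, which bundles the microtubules between separating chromosomes, had 3, 15, 13 and 36 UMIs, a log2 change of 2.64 ± 0.75 (adjusted p = 0.0504) and a ratio of 6.65 (interval 2.18 to 33.1). Birc5 (survivin), a subunit of the chromosomal passenger complex, had 1, 13, 8 and 59 UMIs and an adjusted p of 0.556. Most of the transcripts of Ube2c, Ccnb2 and Cenpf lay in OSA replicate 3. Ube2c, the ubiquitin carrier of the anaphase-promoting complex, had 0, 17, 1 and 50 UMIs, at least 6.33-fold higher in OSA against a floor of 3 counts for the control library. Ccnb2, another mitotic cyclin, had 0, 4, 2 and 41 UMIs (at least 4.09-fold higher), and Cenpf, a kinetochore protein, 0, 4, 2 and 30 (at least 3.19-fold higher), with adjusted p of 0.774 and 0.318. These folds are of the OSA mean, and in OSA replicate 2 alone Ube2c, Ccnb2 and Cenpf lay below that floor. Cdk1 had 0, 4, 5 and 12 UMIs, at least 2.19-fold higher in the mean, and was not tested.

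The licensing and clamp genes of the same cells showed no such pattern, with 2 of 5 tested higher and 3 lower. Of 8 further genes of origin firing and replication tested, 6 were higher, beside 52.6% of all genes tested in the class. Their median log2 change was 0.98, and 4 were under an unadjusted p of 0.05 in edgeR, but 0 were called. Genes can pass the filter through the OSA libraries alone, so these numbers are not a result. Pcna had 71, 41, 40 and 52 UMIs, or 131, 84.7, 76.5 and 70.5 CPM, so that all OSA libraries lay below the control, with a log2 change of -0.76 ± 0.33 (adjusted p = 0.391 in edgeR). Mcm6, another subunit of the helicase ring, had 25, 19, 10 and 29 UMIs (log2 -0.48 ± 0.47). Stmn1 ran from 21 to 171 UMIs in OSA around 26 in the control (log2 1.50 ± 1.45), and Hmgb2 had 184, 237, 161 and 409 UMIs (log2 0.42 ± 0.29, adjusted p = 0.72). Both overlapped between the groups. Without OSA replicate 2, its lowest library, Stmn1 passed at a log2 change of 1.93 (adjusted p = 0.000755).

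**Figure D4:**
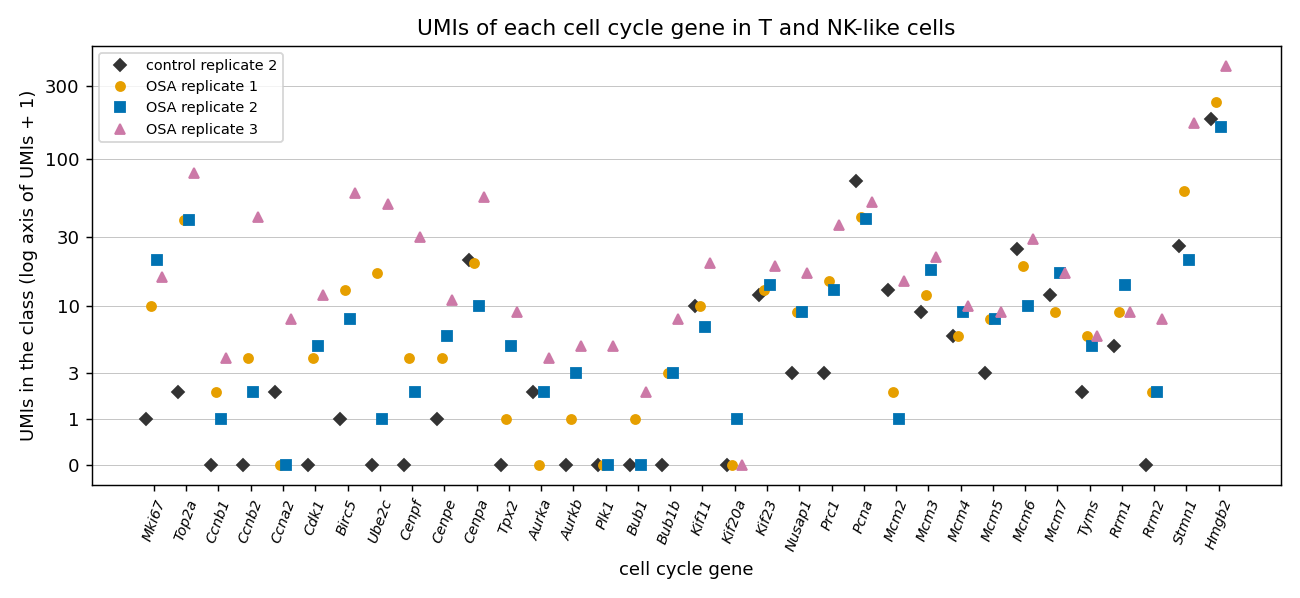
UMIs of each of the 34 cell cycle genes (horizontal axis) in T and NK-like cells, on a log axis of UMIs + 1 (vertical axis), with 1 point per library. Top2a stood at 2 UMIs in the control library and at 39, 39 and 81 in the OSA libraries, and Pcna at 71 against 40 to 52.

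The Top2a transcripts of this class came from few cells. They were detected in 2, 6, 7 and 13 cells, and the richest cell alone held 1, 22, 29 and 24 of them. Of the OSA UMIs, 35 of 39, 34 of 39 and 73 of 81 lay in the mitotic-positive cells. By cluster, most of the OSA UMIs were in 2. The first, with Scart1 and Trdc of gamma-delta T cells among its leading genes, had 0, 23, 36 and 37 UMIs. The second, led by Ccl5, Trbc2 and Cd3d, had 0, 16, 2 and 42. The Gzma and Ncr1 cluster of NK type had 2, 0, 1 and 2, and the Areg and Gata3 cluster 0 in all 4 libraries. The Trdc cluster itself had 4, 22, 27 and 59 cells, or 3.1%, 21.6%, 30.7% and 30.7% of the class. With that cluster left out, an alternative added after seeing the data, 0 cell cycle genes were called in edgeR, the log2 change of Top2a was 3.57 (adjusted p = 0.842) and that of Mki67 2.88 (adjusted p = 0.988). When the cell cycle genes were allowed to enter the clustering, 0 members were called as well, and Top2a and Mki67 were not testable in this class. The calls without OSA replicate 1, 2 and 3 were 6, 7 and 2, beside 2.72%, 1.57% and 3.88% of all genes. DESeq2 gave an adjusted p for 4 of the 19 genes and called 1, Top2a.

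Of the mitotic-positive T and NK-like cells, 4 of 4, 3 of 4 and 7 of 8 carried at least 2 of the 12 T and NK markers. At least 2 macrophage markers were found in 1, 0 and 1 of them, and at least 2 neutrophil markers in 0, 3 and 0. The median number of neutrophil markers was 0, 3.5 and 0 in them and 0, 2 and 0 in the other OSA cells of the class. Summed over its markers, the macrophage list stood at 38.4 CPM in the control class and at 386, 53.4 and 444 in OSA, and the neutrophil list at 45.4 against 309, 629 and 85.2. The T and NK list itself stood at 4639 against 3446, 2627 and 3752. The part of these other transcripts in the Top2a and Mki67 values was not tested.

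Whether the change in lymphocytes differed from that in other classes was tested by the difference of the 2 log2 changes within the same libraries. For Top2a the difference was 5.17 ± 0.72 (SE) against satellite-like cells (adjusted p = 0.00335) and 4.72 ± 0.78 against endothelial-like cells (adjusted p = 2.32e-06). Against macrophage-like cells it was 2.25 ± 6.35 (adjusted p = 0.957), so that no difference from that class was detectable. For Mki67 the differences were 4.35 ± 1.00, 4.07 ± 1.38 and 1.79 (adjusted p = 0.0731, 0.216 and 0.796), and none passed. Members called numbered 1 of 30 against satellite-like cells, with a background of 0.205% of genes, and 0 of 28 against macrophage-like cells (background 0.598%). Against endothelial-like cells they numbered 4 of 34 (background 0.678%), namely Top2a, Birc5, Ube2c and Ccnb2. Ube2c and Ccnb2 had 0 control UMIs in T and NK-like cells and so no finite fold, and the number 4 is therefore not a result. All of these differences share the lone control library and the Trdc cluster. They were taken only for T and NK-like cells, the class with called members, and rest on the same control UMIs as those calls. The differences are therefore no separate support for the calls.

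The promoters of the called genes Top2a and Mki67, and of Cdk1 as the mitotic kinase, are shown because genes of the late cycle are known to share short elements near their start. The CHR, bound by the repressor complex DREAM and its activating relative, was searched as TTTGAA or TTCGAA, the CCAAT box as CCAAT, and the E2F element of S phase genes as TTTCCCGC, TTTGGCGC, TTTCGCGC or TTTGCCGC, on both strands, in the 250 bases before each start site. The sequences are from RefSeq on GRCm38.p6, not the build of the count files, and no coordinate of the counts is used. Capitals mark the matches, which read in reverse complement where they lie on the other strand. Top2a is at chr11:99024190-99024439 (minus strand), Mki67 at chr7:135716380-135716629 (minus), Cdk1 at chr10:69352913-69353162 (minus), and Mcm6, shown for contrast as a replication gene, at chr1:128359706-128359955 (minus).
Top2a: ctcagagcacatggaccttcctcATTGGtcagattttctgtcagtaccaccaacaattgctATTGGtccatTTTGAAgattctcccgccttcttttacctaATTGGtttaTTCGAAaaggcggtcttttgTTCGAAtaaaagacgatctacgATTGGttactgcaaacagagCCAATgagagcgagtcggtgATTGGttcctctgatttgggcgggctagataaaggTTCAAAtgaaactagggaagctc
Mki67: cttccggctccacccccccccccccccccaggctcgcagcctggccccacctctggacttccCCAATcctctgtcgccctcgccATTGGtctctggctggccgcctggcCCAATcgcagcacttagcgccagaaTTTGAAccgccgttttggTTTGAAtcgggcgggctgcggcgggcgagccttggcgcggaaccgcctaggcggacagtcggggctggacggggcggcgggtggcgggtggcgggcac
Cdk1: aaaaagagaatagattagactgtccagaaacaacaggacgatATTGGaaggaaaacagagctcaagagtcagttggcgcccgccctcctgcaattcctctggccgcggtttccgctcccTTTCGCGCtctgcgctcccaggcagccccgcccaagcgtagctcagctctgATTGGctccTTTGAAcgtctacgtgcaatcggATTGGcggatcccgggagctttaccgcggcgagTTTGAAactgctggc
Mcm6: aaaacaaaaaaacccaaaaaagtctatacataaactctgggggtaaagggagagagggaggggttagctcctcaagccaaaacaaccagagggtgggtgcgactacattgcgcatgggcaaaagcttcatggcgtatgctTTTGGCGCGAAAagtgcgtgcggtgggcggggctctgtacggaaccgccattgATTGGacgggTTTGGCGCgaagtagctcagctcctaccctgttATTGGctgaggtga

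The Top2a window held 4 CHR matches, beginning 179, 140, 120 and 23 bases before the start site, and 6 CCAAT matches. Mki67 held 2 CHR matches, 116 and 98 bases before the start, downstream of 3 CCAAT matches, and Cdk1 held 2 CHR (71 and 15 bases), 3 CCAAT and 1 E2F match (131 bases). Mcm6 held 0 CHR, 2 CCAAT and 3 E2F matches (110, 106 and 47 bases), of which the first 2 overlap on opposite strands. Promoters were matched for 28 of the 34 genes, in 30 windows. Both a CHR and a CCAAT match were in 8 of 19 windows of mitotic genes (42.1%), in 3 of 11 windows of the other members (27.3%) and in 6.02% of all 32851 promoters. CCAAT alone did not separate the roles, at 17 of 19 mitotic windows (89.5%) and 10 of 11 of the other windows (90.9%), against 33.8% of all promoters. E2F matches were in 1 of 19 mitotic windows (5.26%), 3 of 11 others (27.3%) and 1.86% of all. A match describes letters and is neither a bound site nor a cause of a change.

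Macrophage-like cells had more mitotic transcript in OSA, most of it in OSA replicate 2, and no gene passed. The 22 mitotic genes summed to 50.4 CPM in the control class and to 67.3, 430.5 and 69.9 in OSA. Top2a had 6, 19, 284 and 112 UMIs, or 4.09, 5.57, 100 and 10.7 CPM (log2 3.18 ± 3.71). Mki67 had 3, 16, 76 and 37 UMIs, a ratio of 3.77 with a counting interval of 1.26 to 18.5 (adjusted p = 0.677 in edgeR), and Cdk1 1, 4, 14 and 14. The replication gene Pcna went the other way, with 64.1, 41.3, 38.5 and 32 CPM and all OSA libraries below the control (log2 -0.79 ± 0.30, adjusted p = 0.207). Hmgb2 did likewise at 143, 94.4, 87.5 and 83.3 (log2 -0.69 ± 0.27, adjusted p = 0.221), while Mcm6 and Stmn1 had log2 changes of -0.16 and -0.35. Of 29 genes tested, 22 were higher, 0 were called by edgeR or DESeq2 and 2 were under an unadjusted p of 0.05, Pcna and Hmgb2, in a class where 1.31% of 12211 genes were called. Many mitotic genes passed the filter through the OSA libraries alone, so the number higher is not a result. With at least 10 counts asked of every library, 3 of 9 genes were higher, with a median log2 change of -0.33. Without OSA replicate 3, where 6.95% of all genes were called, 10 of 29 cell cycle genes passed, among them Top2a (log2 3.65, adjusted p = 1.47e-10) and Mki67 (log2 2.88, adjusted p = 0.00143). Without OSA replicate 2 the median log2 change over the 22 genes then tested was 0.35 in place of 1.37 (1.19 with genes at 0 control UMIs set to their bound).

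Mitotic-positive macrophage-like cells numbered 2, 7, 26 and 25, or 1%, 1.79%, 6.09% and 1.61% of the class, and 0%, 0.567%, 4.12% and 0.312% after thinning. When cell cycle genes entered the clustering, the control share was 2.40% and the OSA mean 5.90% in place of 3.16%. At least 2 macrophage markers were in 2, 7, 26 and 24 of these cells, and at least 2 of 12 neutrophil markers in 0, 3, 17 and 14. The median number of neutrophil markers was 1, 1, 3 and 2 in them and 0, 1, 2 and 1 in the other cells of the class. The part of the neutrophil transcripts in these values was not tested. In OSA replicate 2, 18 of the 26 and 230 of the 284 Top2a UMIs were in 1 cluster. Over the 4 libraries together, that cluster had a median depth of 0.333 times the median of the immune cells of the same library. Its depth in OSA replicate 2 alone was not taken. With the cell cycle genes in the clustering, a macrophage-like cluster led by Top2a, Cd74 and Elane held 3, 7, 48 and 19 cells. Which cell type these cells are was not tested further. The class was held by different clusters in the groups: 1 cluster held 144 of the 200 control cells, and 3 other clusters had 0 control cells.

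Neutrophil-like cells showed mitotic transcripts in OSA replicate 2 almost alone. Top2a had 0, 1, 159 and 1 UMIs, Mki67 0, 0, 73 and 1, Cdk1 0, 0, 30 and 1, Mcm6 0, 0, 12 and 1 and Stmn1 0, 4, 61 and 2. All 14 mitotic-positive cells of the class were in that library, 9 of them the whole of 1 cluster of 9 cells that held 664 mitotic UMIs. Hmgb2, with 954, 833, 1670 and 553 CPM, was highest there, and Pcna had 4, 22, 45 and 15 UMIs. edgeR called 0 of 13 genes, with 1 under an unadjusted p of 0.05, DESeq2 called 0, and the background was 0% of 5823 genes. Without OSA replicate 2, 4 cell cycle genes were tested and 0 of them were higher. The control class had 42 cells, and the cluster that held 357 of the 501 cells of OSA replicate 2 had 0 control cells.

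Satellite-like cells carried the mitotic set in every library, and no change passed. The mitotic sum was 346, 408, 275 and 206 CPM, the control library inside the range of the OSA libraries. Top2a had 126, 103, 112 and 70 UMIs, or 74.8, 44.2, 59.7 and 42.2 CPM, all OSA libraries below the control (log2 -0.62 ± 0.27, adjusted p = 0.724). Mki67 had 58, 57, 56 and 28 UMIs (log2 -0.53 ± 0.34) and Cdk1 32, 33, 25 and 14 (log2 -0.65). Rrm2 had 7, 37, 11 and 23 UMIs and a log2 change of 1.51 ± 0.65 (adjusted p = 0.706). Pcna, Mcm6, Stmn1 and Hmgb2 had log2 changes of -0.10, 0.25, 0.11 and -0.16, from 144, 36, 219 and 348 UMIs in the control library. In edgeR 0 of 31 genes were called against a background of 0.0723%, 2 were under an unadjusted p of 0.05, and DESeq2 called 0.

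Endothelial-like cells had most of the counts, and again none of 33 genes tested was called by edgeR or DESeq2, with 2 under an unadjusted p of 0.05 and a background of 0% of 16590 genes. Bub1b, the spindle checkpoint kinase BubR1, had 67, 44, 24 and 8 UMIs and a log2 change of -1.35 ± 0.45 (adjusted p = 0.903). It was called without OSA replicate 1, at -1.70 (adjusted p = 0.0252), in a fit that called 2.15% of all genes. Kif11, the motor that pushes spindle poles apart, had 29, 60, 53 and 32 UMIs and a log2 change of 0.87. Top2a (179, 148, 245 and 80 UMIs, log2 -0.04 ± 0.48), Mki67 (67, 51, 110 and 20, log2 -0.03 ± 0.77) and Cdk1 (64, 14, 62 and 22, log2 -0.75) were each highest in OSA replicate 2 in CPM, and the control lay inside the range of the OSA libraries for all 3. Aurkb, the kinase of the passenger complex, Birc5, Ccnb2, Ccna2 and Ube2c had log2 changes of -0.65, -0.59, -0.49, -0.48 and -0.42, and Rrm2 and the spindle protein Nusap1 of 0.34 and 0.31. Pcna with 1009 to 2733 UMIs, Mcm6 with 283 to 567, Stmn1 with 663 to 1641 and Hmgb2 with 1783 to 3677 over the 4 libraries had changes of -0.18, -0.06, 0.05 and 0.21.

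Fibroblast-like cells were close to level in most of these genes. Top2a had 103, 104, 102 and 138 UMIs (log2 0.02), Mki67 57, 52, 29 and 52 (log2 -0.47) and Cdk1 19, 28, 11 and 44 (log2 0.39). The largest changes were those of Bub1b (0.80), Mcm2 (0.80), Aurka (0.71), Ube2c (0.65), the mitotic kinase Plk1 (0.61), Mcm7 (0.57 ± 0.29), Ccnb2 (-0.51), Kif11 (-0.48) and Stmn1 (-0.61 ± 0.29, from 420, 286, 236 and 383 UMIs). For Pcna, Mcm6 and Hmgb2 the log2 values were -0.22, 0.11 and 0.14. All 33 genes tested had an adjusted p of 1 in edgeR, 0 were under an unadjusted p of 0.05, DESeq2 called 0, and the background was 0% of 16789 genes. Mitotic-positive cells numbered 13, 5, 11 and 20, and 17 of the 20 in OSA replicate 3 were in a cluster led by Saa3, an acute-phase gene.

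In mural-like cells, which wrap the vessels, edgeR found 20 of 30 genes higher, beside 51.6% of all genes tested. It called 0 of the 30, with 0 called by DESeq2, 0 under an unadjusted p of 0.05 and a background of 0.0624%. Top2a had 52, 70, 85 and 16 UMIs (log2 0.30), Mki67 32, 31, 37 and 6 (log2 -0.20) and Cdk1 10, 9, 14 and 7 (log2 0.23), with Top2a and Mki67 lowest in OSA replicate 3 in CPM too. The largest changes were Bub1b (1.16 ± 0.62), Rrm2 (0.79), Cenpf (0.74), the kinetochore motor Cenpe (0.71), Ube2c (0.64), Mcm5 (0.57), Kif11 (0.55), Rrm1 (-0.46) and Cenpa, the histone of the centromere (-0.41). Those of Pcna, Mcm6, Stmn1 and Hmgb2 were -0.09, 0.31, 0.08 and 0.33. One mural-like cluster also had 7 endothelial markers among its 100 leading genes.

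In the 3 remaining classes edgeR and DESeq2 called 0 cell cycle genes. Schwann-like cells had 22 genes tested, a background of 0.0533% and 0 genes under an unadjusted p of 0.05. Stmn1 was abundant in them, at 732, 664, 470 and 694 CPM (log2 -0.26), while Top2a had 8, 22, 8 and 1 UMIs, Mki67 2, 12, 4 and 0 and Cdk1 1, 5, 2 and 1. Lymphatic endothelial-like cells had 17 genes tested, a background of 0.0406% and 1 under an unadjusted p of 0.05. This was Top2a, with 1, 6, 24 and 8 UMIs and a log2 change of 3.35 ± 1.58 (adjusted p = 0.891). In OSA replicate 2, 20 of the 24 UMIs lay in 1 cell, and without that library Top2a did not pass the filter and 0 of 11 genes were under an unadjusted p of 0.05. Tenocyte-like cells had 23 genes tested, a background of 0.0475% and 1 under an unadjusted p of 0.05, with 0, 30, 13 and 3 UMIs of Top2a and 1, 10, 3 and 0 of Mki67. Pcna had 330, 449, 135 and 99 UMIs in Schwann-like, 81, 80, 39 and 104 in lymphatic endothelial-like and 104, 202, 232 and 168 in tenocyte-like cells. Mcm6 had 49, 67, 18 and 15, then 13, 16, 18 and 34, then 16, 43, 50 and 29 UMIs in the same classes, and Hmgb2 459, 594, 206 and 139, then 82, 120, 96 and 137, then 117, 304, 366 and 200.

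**Figure D5:**
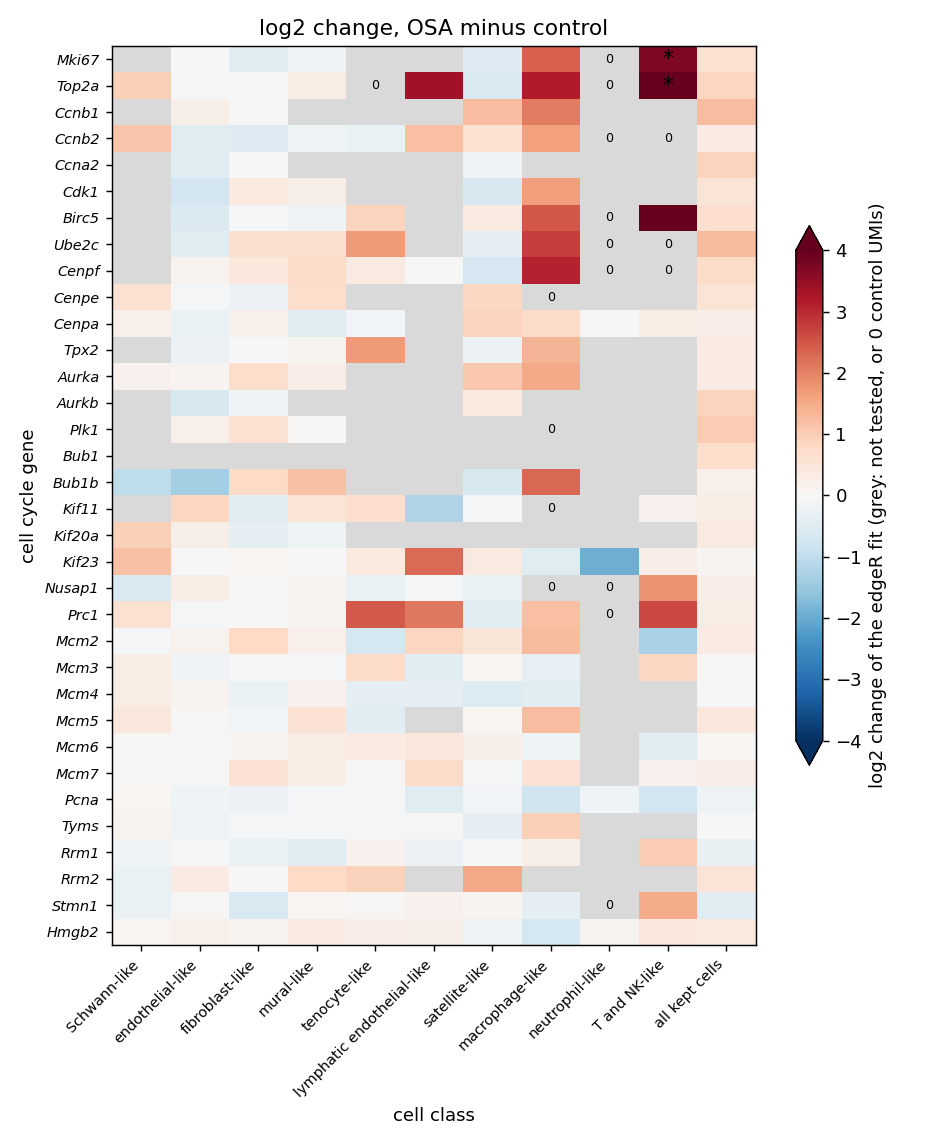
Log2 change of each cell cycle gene (vertical axis) in each class and in all kept cells (horizontal axis) by the edgeR fit of OSA minus control, on a colour scale that ends at 4 in either direction. Grey squares were not tested or have no fold, 0 marks a tested gene without control UMIs in the class, and stars mark adjusted p under 0.05, which only Top2a and Mki67 in T and NK-like cells have.

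Over all 10 classes 0.261% of the tests of all genes passed. Of the cell cycle genes, 2 of 146 tests of mitotic genes passed, both higher in OSA, and 0 of 61 tests of licensing genes, 0 of 23 of nucleotide synthesis genes and 0 of 20 of Stmn1 and Hmgb2. Of the 100 further genes of the cycle, 1 of 729 tests passed, which is no more than that background. It was Ccnd3, a D-type cyclin that drives G1 kinases, which was lower in the T and NK-like cells of OSA. In that class 1.55% of 7920 genes were called. The makeup of the class differed between the groups, its part in this change was not tested, and Ccnd3 was not tried under the alternatives. Ccnd3 had 390, 202, 160 and 292 UMIs, or 717 CPM in the control library and 373 ± 59 (SD, n = 3) in OSA, all OSA libraries below the control. The log2 change was -0.94 ± 0.25 (SE, adjusted p = 0.0307 in edgeR). Close to the threshold were Lig1, the ligase of replication, in the same class (log2 1.85, adjusted p = 0.0965), and in macrophage-like cells Gmnn (geminin), which stops a second loading of origins, with 5, 56, 92 and 229 UMIs (log2 2.77, adjusted p = 0.0525). By list, T and NK-like cells had 1 of 7 tested G1 cyclins and kinases called, beside 1.55% of all genes in the class. None was called among 5 kinase inhibitors, 6 pocket protein, E2F and DREAM genes, 8 origin and replication genes and 5 checkpoint genes. The same held for 11 chromosome and spindle genes and 8 anti-proliferative genes.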

How the data were processed

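Droplet single-cell RNA sequencing of the mouse genioglossus was read from 4 of 6 libraries: control replicate 2 and OSA replicates 1 to 3. The deposited matrices hold raw UMI counts per gene and barcode, made by the authors with Cell Ranger 9.0.1 per the file headers, on GRCm39 and mm39 per the submitters' processing notes. No count was normalised before deposit. Barcodes under 300 genes or 500 UMIs or over 20% mitochondrial UMIs were removed, as were Scrublet doublet calls (expected rate 0.1, 356 to 551 barcodes), which also bear on cells of high UMI counts. Counts were scaled to 10000 per cell, and 2000 variable genes without any cell cycle gene gave 30 components, 15 neighbours and Leiden clusters at resolution 1 (scanpy 1.11.5, igraph 0.11.9, Python 3.11.15). Clusters were named from 22 marker lists (at least 3 markers), and 2.08% to 3.15% of cells stayed unnamed. Class names are rebuilt from transcripts and may differ from the authors'.

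Counts summed per library and class were tested with edgeR 4.0.16 (limma 3.58.1, R 4.3.3; filterByExpr, TMM, quasi-likelihood, Benjamini-Hochberg over all genes of the class at 0.05), which assumes that the lone control varies like the OSA libraries, and with DESeq2 1.42.0 as an alternative. CPM of single members are after TMM scaling, and summed levels are CPM of the class total. The test was run on simulated counts drawn around well-covered genes of the fibroblast-like class. That setting does not cover genes with as few control UMIs as those called in T and NK-like cells. Named with values were every member called, Mki67, Top2a, Cdk1, Pcna, Mcm6, Stmn1 and Hmgb2 in every class, up to 10 members of largest change in the 3 classes with most counts, and pathway genes called. Other members named were chosen after their values were seen. The members and lists were chosen with earlier results of these data known.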

Additional observations from a re-analysis of the deposited data

Results flagged for a closer look

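The difference between 2 classes in the log2 change from control to OSA was tested within the same libraries with an interaction term in edgeR. Given here are the genes that passed and had control UMIs in both classes. For Top2a the change in T and NK-like cells exceeded that in satellite-like cells by 5.17 and that in endothelial-like cells by 4.72 on the log2 scale. For Birc5 the change in T and NK-like cells exceeded that in endothelial-like cells by 5.002, while its own change in T and NK-like cells did not pass (adjusted p = 0.556). These differences rest on 2 Top2a UMIs and 1 Birc5 UMI in the T and NK-like cells of the control library. Ube2c and Ccnb2 also passed against endothelial-like cells, but they had no UMI in those control cells. No group of 4 or more samples was present to test for single outlying libraries.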

How the results depend on the processing

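No paired analysis was possible because only 1 control library was analysed, so replicate numbers are shared by 1 pair at most. In T and NK-like cells, where 2 members were called, DESeq2 called 1 (0.467% of all genes called, with no adjusted p for 15 of 19 members), no filter on low counts gave 6 (0.956%), a minimum of 10 counts in every library gave 0 (0.947%), libraries thinned to equal totals gave 1 (1.51%), and clustering with the cell cycle genes gave 0 (1.68%). Leaving out 1 OSA library gave 2 to 7 there, 0 to 1 in endothelial-like and 0 to 10 in macrophage-like cells, against 0 as reported in both. Leaving out the Trdc cluster, chosen after seeing the data, gave 0 (0.225%). Without a filter 2 of 34 members were called in macrophage-like cells, where 4% of all genes were. The highest leave-one-out counts came with 1.57% of all genes called in T and NK-like, 2.15% in endothelial-like and 6.95% in macrophage-like cells. DESeq2 gave no adjusted p for 12 of 29 members in macrophage-like, 4 of 33 each in endothelial-like and fibroblast-like and 1 of 30 in mural-like cells. Top2a and Mki67 were tested in 9 alternatives in T and NK-like cells. The log2 change of Top2a ran from 3.57 to 4.64 and passed in 8 of the 9, with adjusted p from 3.24e-08 to 0.842 in edgeR or DESeq2. That of Mki67 ran from 2.88 to 3.89 and passed in 5 of the 9, with 1 adjusted p not given by DESeq2. Neither gene was tested with a minimum of 10 counts in every library, which removes both by construction. Nor was either tested with the cell cycle genes in the clustering. In both of those settings 0 members were called. For the other changes the cause was not tested. For the share of cells with mitotic genes, a minimum of 2 genes gave a difference of 0.902 percentage points in place of 0.323. Over 87 named values and 833 alternatives, 13 calls were kept, 4 were lost, 4 were gained and 29 uncalled values changed sign. The control library is the limit on depth: 1 UMI is worth 1.75 CPM in its T and NK-like cells and 13.5 in its neutrophil-like cells. Leaving out the control library was not possible.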
